A study of Danio rerio with 2 samples.

Results

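The genes described here encode RNA helicases and proteins of ribosome biogenesis, measured in amputated hearts of adult zebrafish. They were chosen by gene symbol alone: every symbol that starts with ddx, exosc, utp or rrp, or with nop and a digit, and the symbols fbl, ncl, npm1a, dkc1, gar1 and nhp2. On the array, 82 probe sets carried such a symbol as their only gene name, and they stood for 60 of the 8793 genes with a single name. The brightest probe set on average was used for each gene. The 2 groups shared everything that the labels give except the bath: in adult fish about 20% of the ventricle was cut off at the apex, the fish were then exposed to water or to atropine, an antagonist of muscarinic acetylcholine receptors, and whole hearts were taken 24 hours later. No strain, sex or dose is given in the sources used here. Each group was 1 pool of 15 hearts on 1 Affymetrix array, so the design allows no replicate check and no test across samples, and precision is limited by the number of arrays.

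Ribosomes are built in the nucleolus. RNA polymerase I makes a long precursor RNA, which is modified by small nucleolar ribonucleoproteins (snoRNPs), cut and folded within large assemblies such as the small-subunit processome, and trimmed by the RNA exosome, a ring-shaped complex that degrades RNA from its end. DEAD-box helicases, the ddx genes, use ATP to open short RNA duplexes or to strip proteins from RNA, some of them in the nucleolus and others in splicing, export, translation or storage of messenger RNA. In the zebrafish heart, cardiomyocytes near the wound re-enter the cell cycle in the days after amputation, and dividing cells need new ribosomes.

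No member differed by 1.5-fold or more between the arrays. Of the 60 genes, 53 reached the level filter, 4.05 on the deposited log2 scale, on at least 1 array, and 0 of these 53 were 1.5-fold higher and 0 were 1.5-fold lower with atropine. Over all 5294 genes compared in the same way, 1.87% were 1.5-fold higher and 2.12% were 1.5-fold lower. At 2-fold both counts were also 0, beside 0.397% higher and 0.359% lower of all compared genes. Past a lower threshold, a difference of 0.32 (log2), 2 members were higher (3.77%) and 3 lower (5.66%), beside 7.42% and 9.43% of all compared genes. Of the 3 lower members, utp25 reached the filter only on the water array, on which it was higher. The members' differences, atropine minus water, had a median of -0.052 (log2), with 34 of 53 below 0 and 19 above. The median of all compared genes was -0.012, with 52% below 0 and 47.8% above. Their standard deviation across genes was 0.19, and that of all compared genes 0.27. With no level filter the 60 members had a median of -0.051 and 37 lay below 0. In whole hearts fewer cells of a type and less RNA per cell cannot be told apart.

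Differences below are as deposited. An additive rescaling of the arrays moves every gene alike, so a direction should be read relative to the median of all compared genes, -0.012. Counts below and above 0 are of the values as deposited, and 33 of the 53 members lay below that median. Set to no difference in 6 cardiomyocyte markers, that median would stand at 0.15, and set to the polyadenylated spike-in controls at 0.47. The second of these would put 34 of the 53 members on the other side of 0 and the first 21. The tissue label fits the markers on both arrays: 6 of the 8 cardiomyocyte markers had a named probe set, and these had a mean value of 11.7 in water and 11.4 with atropine. Their differences ran from -1.19 in myh7 (6.95 and 5.76), a ventricular myosin gene, to 0.0034 in tnnt2a. Markers of other cells of the heart also included differences larger than that of any member. All 6 measured genes of the neutrophil marker list lay below the median of all compared genes (median -0.90, mean level 7.05 in water and 6.12 with atropine). Of these, cpa5 passed the filter only through the water array, on which it was higher (4.35 in water and 3.90 with atropine). Neither cpa5 nor the matrix protease genes mmp9 and mmp13a of that list are specific to neutrophils. Below that median were also 5 of 6 macrophage markers (-0.62, mean level 8.81 and 8.12). These 6 were uneven, from -1.63 in cd74a to -0.022 in grna.1 and 0.10 in csf1ra. The same held for 4 of 5 fibroblast and matrix markers (-0.76, mean level 7.09 and 6.35), which ran from -1.55 to 0.096. All 6 red blood cell markers lay above that median (0.67, mean level 8.86 and 9.54). The 3 endothelial markers measured lay close to that median, from -0.035 to 0.033 (median -0.0325, mean level 6.72 in water and 6.71 with atropine). The part of these cell types in the differences of the members was not tested.

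**Figure D1:**
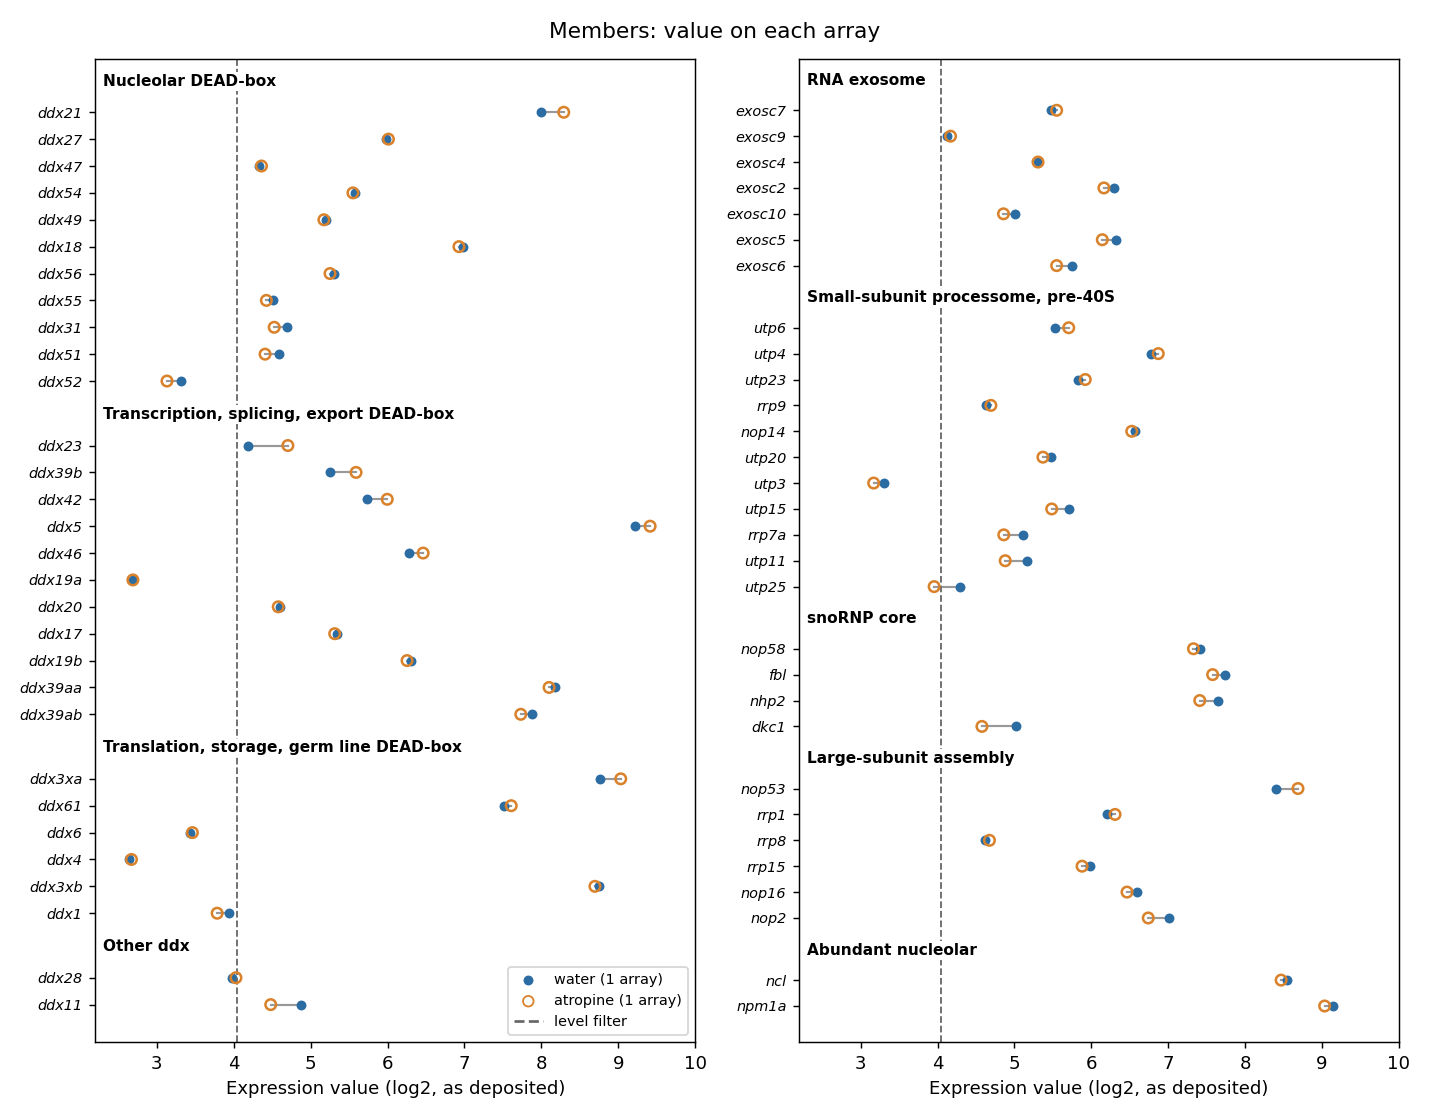
Deposited log2 value of each of the 60 members on the water array (filled blue) and the atropine array (open orange), grouped by role; the dashed line is the level filter of 4.05. Most pairs nearly coincide, and the widest gap is that of ddx23, from 4.18 to 4.70.

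Core proteins of the snoRNPs lay below the median of all compared genes in all 4 genes among the members, with a median of -0.20, that is 0.19 below it. The genes snu13a (-0.017) and snu13b (-0.44), of a protein that snoRNPs and the spliceosome share, are not members. They are counted with the further small-subunit factors below. The gene dkc1, encoding dyskerin, the pseudouridine synthase of the H/ACA class, stood at 5.03 in water and 4.58 with atropine, a difference of -0.45 or 1.37-fold. It was the lowest of the 53 differences, and 4.61% of all compared genes lay as low or lower. The gene nhp2, whose product binds the same RNAs as dyskerin, went from 7.65 to 7.41 (-0.24). In the C/D class, fbl (fibrillarin, the methyltransferase that modifies ribose in ribosomal RNA) stood at 7.74 and 7.58 (-0.17), and the scaffold gene nop58 at 7.41 and 7.33 (-0.083). A second probe set of nop58 differed by -0.16. The amounts were unequal. Of all compared genes 16.2% lay as low as nhp2 or lower, 23.7% as low as fbl and 37.0% as low as nop58. No probe set carried gar1 as its only gene name. The size for dkc1 depends on how low values are treated, since it was -0.29 after 16 was added to each value on the linear scale.

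Factors of the small-subunit processome and of the particle that follows it were split. Of 10 genes past the filter, 6 were below 0 and 4 above, with a median of -0.073. The lowest was utp25, also named def, whose loss in zebrafish impairs growth of the digestive organs. It stood at 4.29 in water and 3.96 with atropine, a difference of -0.33, and since only the water value reached the filter, it was compared because of the array on which it was higher. With 16 added on the linear scale it differed by -0.17, and utp11, at -0.19, was then lower. The processome genes utp11 (5.16 and 4.88, difference -0.28) and utp15 (5.71 and 5.48, difference -0.23) were lower by similar amounts, as was rrp7a (5.11 and 4.86, difference -0.25), another small-subunit factor. These 4 differences were larger than any in the other direction among the 10. At the other end, utp6 stood at 5.53 and 5.71 (0.18), utp4 at 6.77 and 6.87 (0.10) and utp23 at 5.83 and 5.92 (0.095). The remaining 3, utp20, nop14 and rrp9, lay between -0.10 and 0.059.

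The large-subunit factors were spread evenly, 3 below 0 and 3 above, with a median of -0.018. The gene nop2, encoding a methyltransferase of the large ribosomal RNA, stood at 7.01 in water and 6.74 with atropine (-0.27). In the other direction, nop53, whose yeast counterpart guides the exosome to the large-subunit precursor, stood at 8.40 and 8.69 (0.28). The other 4 lay nearer 0, with nop16 at -0.13, rrp15 at -0.10, rrp8 at 0.064 and rrp1 at 0.11. The abundant nucleolar proteins nucleolin and nucleophosmin, which bind precursor RNA and chaperone its assembly, hardly differed. Their genes stood at 8.55 and 8.47 for ncl (-0.082) and at 9.14 and 9.03 for npm1a (-0.11), and a second, dimmer probe set of npm1a differed by 0.074.

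Nucleolar DEAD-box helicases clustered close to 0, with 1 exception. Of 10 genes past the filter 7 were below 0, the median was -0.040, and 9 of the 10 lay between -0.18 and 0.031. The exception was ddx21, whose product links RNA polymerase I transcription with processing of its product, at 7.99 in water and 8.29 with atropine (0.30, 1.23-fold). Of all compared genes 8.37% were as high or higher. The lowest values were those of ddx51 (4.58 and 4.41, difference -0.18), ddx31 (4.70 and 4.53, difference -0.17) and ddx55 (4.52 and 4.42, difference -0.092). Further probe sets of ddx51 (0.045 to 0.11) and ddx31 (0.24) lay on the other side of 0, all of them below the filter. The direction given for ddx51 and for ddx31 therefore rests on 1 probe set each. The next highest after ddx21 were ddx27 (5.98 and 6.01, difference 0.031) and ddx47 (4.33 and 4.36, difference 0.026).

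**Figure D2:**
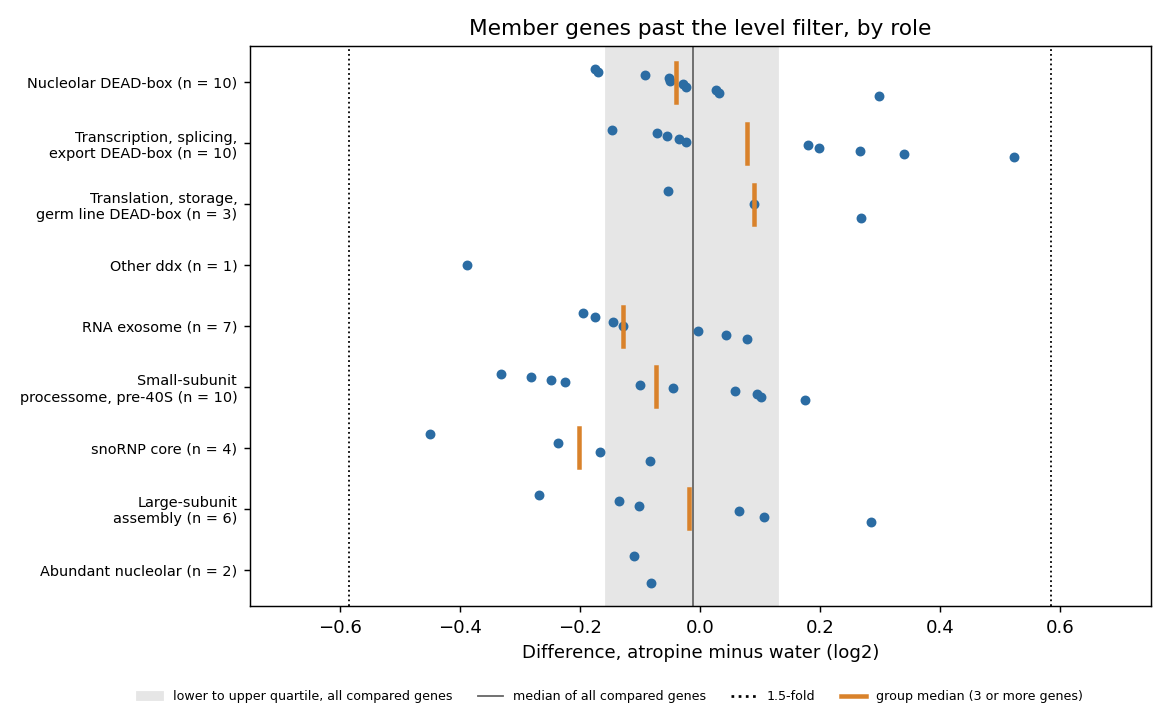
Difference between the arrays (atropine minus water, log2) for the 53 members past the level filter, 1 point per gene and 1 row per role; orange bars are medians of groups with 3 or more genes, the grey band runs from the lower to the upper quartile of all compared genes and the dotted lines mark 1.5-fold. No point reaches a dotted line; the 4 snoRNP genes lie to the left of the all-gene median (-0.012), and 5 of the 10 DEAD-box genes of transcription, splicing and export lie to the right of the grey band.

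DEAD-box helicases of transcription, splicing and messenger RNA export fell into 2 sets of 5. Their median was 0.079 over 10 genes, but no gene lay near it, since 5 genes were between 0.18 and 0.52 and the other 5 between -0.15 and -0.023. The highest of all members was ddx23, encoding the helicase that helps to exchange small nuclear RNAs at the splice site before the spliceosome is activated. It stood at 4.18 in water and 4.70 with atropine, a difference of 0.52 or 1.44-fold, which 2.53% of all compared genes reached or passed. Its water value is close to the filter, and with 16 added on the linear scale the difference was 0.30. Next came ddx39b, of the helicase that loads export factors onto spliced messenger RNA (5.25 and 5.59, difference 0.34), and ddx42 (5.73 and 5.996, difference 0.27). The remaining 2 above 0 were ddx5, a transcription coactivator and splicing factor (9.22 and 9.41, difference 0.20), and ddx46, a helicase of early spliceosome assembly (6.28 and 6.46, difference 0.18). On the lower side were ddx39ab (7.88 and 7.73, difference -0.15) and ddx39aa (8.17 and 8.10, difference -0.071), close relatives of ddx39b, with ddx19b, which releases messenger RNA at the nuclear pore (6.31 and 6.25, difference -0.055). The gene ddx17, a close relative of ddx5, differed by -0.035, and ddx20, of the complex that assembles small nuclear RNPs, by -0.023.

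Among helicases of translation and storage only 3 of 6 genes passed the filter. The gene ddx3xa, whose product aids translation of messenger RNAs with structured leaders, stood at 8.76 in water and 9.03 with atropine (0.27), and its 2 other probe sets differed by 0.27 and 0.17. All 3 of its probe sets were higher with atropine. Its relative ddx3xb stood at 8.75 and 8.70 (-0.053), and ddx61 at 7.52 and 7.61 (0.089). A second probe set of ddx61 stood at 6.89 and 7.23 (0.34), and the mean over the gene's probe sets was 0.17. Below the filter were ddx1, ddx4 and ddx6. The germ line gene ddx4 (vasa), at 2.64 and 2.67, lay far under the filter on both arrays. The gene ddx11 encodes a DNA helicase that acts in cohesion of sister chromatids, not an RNA helicase, and carries the ddx symbol by family. It stood at 4.87 in water and 4.48 with atropine, a difference of -0.39 or 1.31-fold, second lowest of the 53, or -0.24 with 16 added on the linear scale.

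The exosome was represented by 7 subunit genes, of which 5 were below 0 and 4 below the median of all compared genes, with a median of -0.13. No subunit differed by more than 0.195 (log2). The ring subunit genes exosc6 (5.74 in water and 5.55 with atropine, difference -0.20) and exosc5 (6.32 and 6.14, difference -0.18) were lowest, followed by the nuclear exonuclease gene exosc10 (5.003 and 4.86, difference -0.15) and the cap subunit gene exosc2 (6.29 and 6.16, difference -0.13). The other 3 ring genes were exosc4 (5.31 and 5.31, difference -0.0043), exosc9 (4.13 and 4.17, difference 0.043) and exosc7 (5.47 and 5.55, difference 0.078). The sign for exosc4 and exosc7 is not settled, because the further probe sets of exosc4 ran from -0.30 to 0.057 and that of exosc7 was at -0.15.

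How far 2 probe sets of 1 gene differ on these same RNA pools gives a rough scale for the values above. In 7 members 2 or more probe sets passed the filter, and the 2 brightest had the same sign in 4 of them. Their median gap was 0.18 (log2), with a highest gap of 0.30 in exosc4. Over all 648 compared genes with several such probe sets the median gap was 0.12, and the sign was shared in 71.5%. The median size of a member's difference, 0.11, was smaller than either gap. Probe sets share the pools, so the gap holds no variation between fish. Besides measurement error it can hold differences between the transcripts that the probe sets take up. A gap sets 1 difference against another, so it is not the error of a single difference. Of the genes at either end, dkc1, ddx23, ddx11, ddx39b and utp25 had 1 probe set each.

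**Figure D3:**
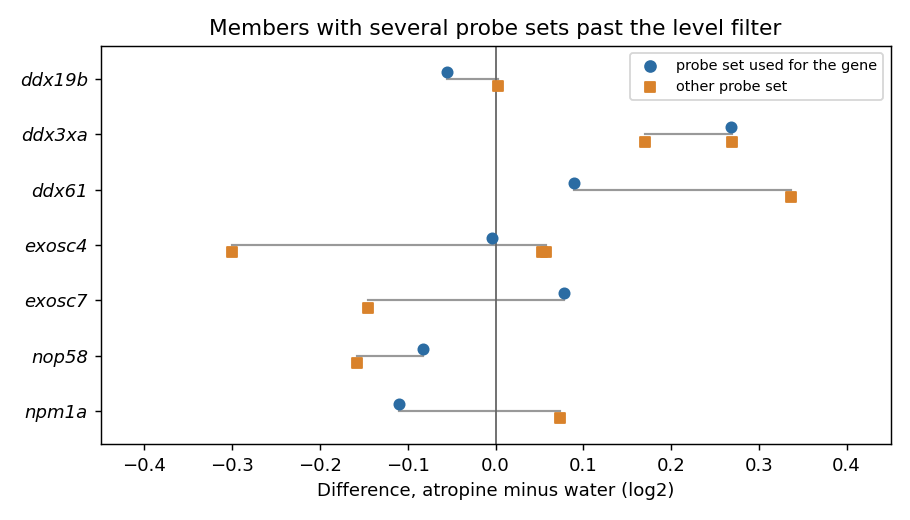
Difference between the arrays (atropine minus water, log2) on each probe set past the level filter, for the 7 members with several; blue circles mark the probe set used for the gene and orange squares the others. The 3 probe sets of ddx3xa all lie above 0, between 0.17 and 0.27, while those of exosc4 span -0.30 to 0.057.

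Other genes of the pathway, grouped in 7 lists that hold no member, showed differences of similar size. Of 150 genes matched to the array 128 passed the filter, and 0 were 1.5-fold higher and 0 were 1.5-fold lower. Past the threshold of 0.32 (log2) 5 were higher (3.91%) and 10 lower (7.81%), beside the 7.42% and 9.43% of all compared genes. Of the 5 higher genes, dqx1 and pop5 passed the filter only through the atropine array, on which they were higher. Of the 10 lower genes 8 were in 1 list. They were 8 of the 39 further small-subunit factors (20.5%), of which 0 were higher past that threshold. In that list 27 of 39 were below 0 (69.2%, beside 52% of all compared genes), with a median of -0.093. The lowest was wdr36, a processome gene, at 5.50 in water and 5.03 with atropine (-0.47, 1.39-fold). The next were trmt112, encoding a partner of RNA methyltransferases (7.05 and 6.60, difference -0.45), snu13b, of a protein that snoRNPs and the spliceosome share (7.43 and 6.99, difference -0.44), and imp3 (6.42 and 5.99, difference -0.43). The other 4 were pwp2h, wdr46, fcf1 and tsr1, between -0.38 and -0.33. The highest of this list was rcl1 at 6.09 and 6.38 (0.29).

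Assembly factors of snoRNPs were below 0 in 8 of 9 genes (88.9%, beside 52% of all compared genes). Their median was -0.16, on the same side as the 4 snoRNP core genes among the members. The lowest was ruvbl1, an ATPase of the chaperone complex that builds them and of chromatin remodellers (6.49 in water and 6.06 with atropine, difference -0.42), and the highest taf9 (0.066), which is also a subunit of the general transcription machinery. The list of MYC and its partners holds transcription factors known to drive or restrain ribosome biogenesis genes. It was above 0 in 5 of 6 genes past the filter, beside 47.8% of all compared genes, with a median of 0.27. Of the 5, mxi1 passed only through the atropine array, on which it was higher (3.9997 in water and 4.27 with atropine), and with no level filter the median was 0.17 over 9 genes. The highest was myclb, at 4.74 and 5.13 (0.39), and the lowest mycb, at 7.69 and 7.61 (-0.081). The MAX partner gene mxd4, whose product represses MYC targets, stood at 6.79 and 7.08 (0.29), and max at 8.10 and 8.36 (0.26).

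Elsewhere in the pathway the medians stayed close to that of all genes. RNA polymerase I and its factors had a median of -0.037 over 9 genes, with ubtfl lowest (5.42 in water and 5.14 with atropine, difference -0.28) and ubtf, encoding an activator of the ribosomal RNA genes, highest (6.85 and 7.11, difference 0.26). Further large-subunit factors had a median of -0.061 over 38 genes, with nifk lowest (7.19 and 6.88, difference -0.31) and senp3b highest (5.45 and 5.78, difference 0.32). DEAH-box and other helicases had a median of -0.0021 over 12 genes, from mov10b.1 (-0.33) to dqx1 (0.34), the second from a water value of 3.79 below the filter. The list of exosome cofactors and RNA decay genes had a median of 0.020 over 15 genes. It ran from skic8 (-0.28) to pop5 (0.35), the second from a water value of 3.91 below the filter. This list also holds genes of RNase P and MRP, enzymes that cleave precursor RNAs, and pop5 is one of them.

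**Figure D4:**
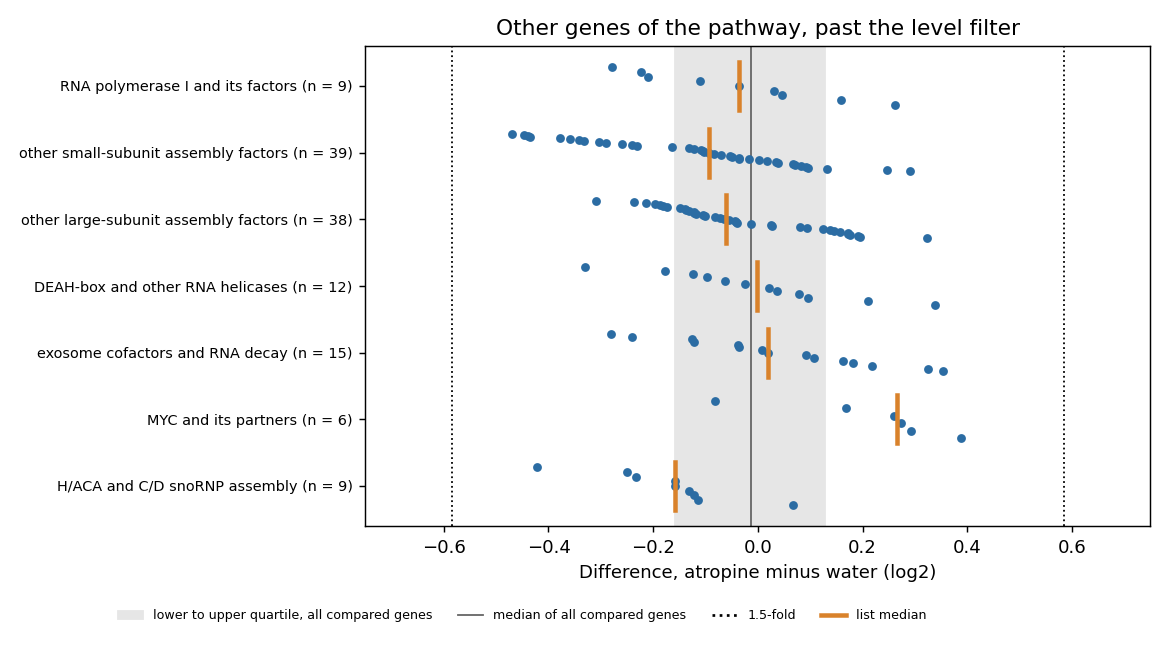
Difference between the arrays (atropine minus water, log2) for the 128 pathway genes past the level filter that are not members, 1 row per list; orange bars are list medians, the grey band runs from the lower to the upper quartile of all compared genes and the dotted lines mark 1.5-fold. No gene reaches 1.5-fold; the list of further small-subunit factors reaches furthest to the left, to -0.47 in wdr36, and the MYC list has its median at 0.27.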

How the data were processed

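Total RNA of 2 pools of hearts was labelled with an Affymetrix kit for 3' transcript ends, per the labels. The authors deposited 1 value per probe set and array, taken here as log2 from its range (2.02 to 14.05). Its normalization is not stated in the labels or the file. Of 15502 non-control probe sets, 10795 had 1 gene symbol in the platform annotation, 135 several and 4572 none; 1 of the 135 names a member among several genes and was left out. All 60 members matched RefSeq by Entrez identifier. Because no genome or sequence table was used, no coordinates or sequences are given.

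The difference is log2(atropine) minus log2(water). Genes were compared if the higher value reached 4.05, the median of non-control values. Members and lists were chosen with earlier results of these data known. Of 251 names in the pathway lists, 146 matched by symbol and 4 by synonym. In the list of further small-subunit factors, sbds and sdad1 act on the large subunit. In that of further large-subunit factors, nol7 acts on the small subunit. Genes named were, per role, the 3 highest and 3 lowest differences and all with a second probe set past the filter; per list, those at least 1.5-fold apart, or else the highest and the lowest. The 8 lower genes of the small-subunit list, max, mxd4, mxi1, the 7 members under the filter and the members ddx5, ddx46, ddx17, ddx20, utp15, utp20, nop14, rrp9 and exosc2 were named after their values were seen. Calls at 1.5-fold were tested on simulated arrays. The planted changes there were larger than any member's difference, so the test does not cover the smaller differences and medians given here. Alternatives were other level filters and scalings, a loess fit (span 0.4), an offset of 16, other probe set choices and thresholds of 0.32 (log2) and 2-fold. Python 3.11.15, numpy 2.4.6, pandas 2.3.3 and statsmodels 0.14.6 were used.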

Additional observations from a re-analysis of the deposited data

How the results depend on the processing

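Each count and median was recomputed with no level filter, a filter at the upper quartile or on the mean of the arrays (added after seeing the data), median centring, quantile normalization, a loess fit, an offset of 16, the mean of a gene's probe sets, and leaving out probe sets prone to cross-hybridization. Under these 9 settings the members' median lay between -0.055 and -0.034, that of the snoRNP core genes between -0.20 and -0.17 and that of the MYC list between 0.17 and 0.28, and no member or pathway gene reached 1.5-fold. Among members still past the filter, the sign turned for exosc4 (0.0063 after quantile normalization) and exosc7 (-0.034 with probe sets averaged). Averaging left 51 members past the filter, without ddx31 and ddx51, so the signs of those genes were not compared in that setting. The filter at the upper quartile left 25 members. With the filter at the upper quartile the median of the list of exosome cofactors and RNA decay genes was -0.12 over 3 genes. That of nucleolar helicases was 0.031 over 3 genes. With no filter that of helicases of transcription, splicing and export was 0.0000 over 11 genes, and that of RNA polymerase I genes ran from -0.054 to -0.0035 over the settings that left 3 or more of them. Past 0.32 (log2) the counts were 2 members higher and 3 lower, and 5 pathway genes higher and 10 lower; at 2-fold all were 0.

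Both scalings add a constant, 0.16 for cardiomyocyte markers and 0.48 for polyadenylated spike-ins. With the first, 1 member (ddx23, 0.68) was 1.5-fold higher, beside 3.99% of all compared genes, and the members' median was 0.11. With the second, 10 members and 28 pathway genes were 1.5-fold higher, beside 28.6% of all compared genes, and the members' median was 0.43. Medians under the first and the second scaling, in that order, were 0.12 and 0.44 for nucleolar helicases, 0.24 and 0.56 for helicases of transcription, splicing and export, 0.25 and 0.57 for those of translation, 0.032 and 0.35 for the exosome, 0.087 and 0.41 for the processome, -0.042 and 0.28 for snoRNP core genes, and 0.14 and 0.46 for large-subunit factors. For the other lists they were 0.12 and 0.44 for RNA polymerase I, 0.067 and 0.39 for further small-subunit and 0.0997 and 0.42 for further large-subunit factors, 0.16 and 0.48 for other helicases, 0.18 and 0.4986 for RNA decay, 0.43 and 0.75 for MYC, and 0.0025 and 0.32 for snoRNP assembly. The choice of scale therefore sets the sign of most medians, though not their order.

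No paired analysis was possible because each group holds 1 array. Without scanner files or detection calls, whether a value near the filter is above background is unknown.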

Other observations

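Some closely related genes lay on opposite sides of the median of all compared genes or well apart. The pairs were picked after their values were seen. The helicase gene ddx3xa was at 0.27 and ddx3xb at -0.053, and ddx39b was at 0.34 where ddx39aa and ddx39ab were at -0.071 and -0.15. Among the other pathway genes, pa2g4b stood at 8.77 in water and 8.96 with atropine (0.20) and pa2g4a at 7.97 and 7.84 (-0.14), while snu13b was at -0.44 and snu13a at -0.017. In each set the probes might take up both transcripts, so single values are uncertain.

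The 7 members below the filter on both arrays were ddx1, ddx4, ddx6, ddx19a, ddx28, ddx52 and utp3. Their values ran from 2.64 for ddx4 to 4.03 for ddx28, and ddx19a had the same value on both arrays, 2.69. No direction is given for them, and whether they were above background is unknown.

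The standard deviation of the difference was lower over members than over all genes in each range of mean value examined. Among genes with a mean value from 5 to 6, it was 0.17 over 16 members and 0.26 over 1221 genes, and from 6 to 7 0.14 over 10 members and 0.27 over 1157 genes. Under 5 the values were 0.24 over 14 members and 0.27 over 1260 genes. From 7 to 8 they were 0.12 over 5 members and 0.29 over 793 genes, and from 8 upward 0.19 over 8 members and 0.26 over 863 genes. The median size of the difference was not lower over members in every range. Under 5 it was 0.158 over members and 0.148 over all genes, and from 8 upward 0.154 and 0.125. In the ranges between, it was lower over members.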
